A study of Mus musculus with 36 samples.

Results

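The dendritic cells described here received 3 ligands together, depleted zymosan (Z), Sendai virus (labelled SeV, S) and 3',3'-cGAMP (cG), and were compared with cells that received each pair of those ligands. Setting the triplet ZScG against the pair ZS shows what cG added, against ZcG what S added, and against ScG what Z added. The libraries were chosen by their titles, 2 of ZScG and 2 of each pair, which makes 8 of the 36 libraries of the series. All were dendritic cells, which take up and present antigen, grown from the bone marrow of C57BL/6 mice labelled as female and 6 to 8 weeks old, with GM-CSF at 15 ng/mL and stimulated for 6 h. Unstimulated cells (Ctrl) and cells given Z, S or cG alone, grown and handled alike, are used as reference levels. ATAC-seq was used, in which a transposase cuts open chromatin and leaves sequencing adapters there, so that read counts in a peak measure its accessibility. The labels give no ligand doses. They also do not say whether the 2 libraries of a group came from separate cultures or animals, and p-values then measure only the spread between these libraries.

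As background, the ligands act through different receptors. Zymosan is a yeast cell wall preparation seen by Dectin-1 and TLR2. Depleted zymosan is sold with its TLR2 activity removed, leaving Dectin-1, which signals through the kinase SYK and the adaptor CARD9 to NF-kappaB. Sendai virus is an RNA virus sensed by RIG-I through the mitochondrial adaptor MAVS. The cyclic dinucleotide cGAMP binds STING. The RIG-I and STING pathways meet at the kinase TBK1 and the factor IRF3, which switches on type I interferon, and the interferon then acts back on the cells through its own receptor.

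The 8 libraries held 19793735 to 29982120 counts over 119751 peaks. The peak covering the mitochondrial genome took 51.0% to 63.1% of them and was left out, which left 8181254 to 11670203 counts per library. Accessibility is given as CPM, the counts of a peak relative to the library size after nuclear counts were scaled by TMM. A count of 0 allows up to 3 counts, or 0.276 to 0.414 CPM in these libraries, and this limit covers counting error only. Replicates correlated at 0.901 in ZScG, 0.920 in ZS, 0.912 in ZcG and 0.922 in ScG (Pearson r of log2 CPM over 119464 tested peaks). The mitochondrial share was 58.3% ± 0.555 (SD, n = 2) in ZScG, 54.5% ± 5.05 in ZS, 63.0% ± 0.157 in ZcG and 59.4% ± 2.97 in ScG, and the ZS libraries stood farthest apart, at 58.1% and 51.0%. It was 61.0% ± 1.23 in Ctrl, 61.7% ± 1.06 in Z, 47.9% ± 1.12 in S and 46.1% ± 1.61 in cG. Because this share differs between ligand groups, its part in a comparison and that of the ligand cannot be told apart. Peaks near lineage genes (147 peaks near 18 genes of dendritic cells and macrophages) summed to 941 and 917 CPM in ZScG. Neutrophil genes reached 49.3 and 51.2 CPM over 10 peaks and lymphocyte genes 63.8 and 64.7 CPM over 19, with no tested peak within 1 kb of Elane, Ly6g, Retnlg, Cd8a or Ncr1. Genes of plasmacytoid dendritic, mast and erythroid cells summed to 223 and 238 CPM over 47 peaks, with none near Siglech, Cpa3, Mcpt4, Gata1 or Hba-a1.

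Shown first are 4 of the promoters under peaks named below, as RefSeq gives them for GRCm38.p6. Each runs from 250 bases before to 50 after the gene start, read 5′ to 3′ on the gene's strand. Capitals mark matches, on either strand, to GAAANNGAA, the core of interferon response elements, to TGACGTCA, the cyclic AMP response element, or to TGTGGTTT, a RUNX motif. Hsd11b1 is shown because every added ligand lowered the peak over its promoter, Cytip because S lowered it, Ifna4 because S raised it, and Dusp1 because Z raised it.
Hsd11b1, chr1:193242311-193242610, minus strand: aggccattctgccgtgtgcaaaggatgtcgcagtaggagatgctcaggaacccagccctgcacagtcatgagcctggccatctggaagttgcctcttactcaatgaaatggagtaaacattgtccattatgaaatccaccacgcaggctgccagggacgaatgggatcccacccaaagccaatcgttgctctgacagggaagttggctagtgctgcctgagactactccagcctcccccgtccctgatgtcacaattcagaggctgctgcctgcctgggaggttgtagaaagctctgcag
Cytip, chr2:58160073-58160372, minus strand: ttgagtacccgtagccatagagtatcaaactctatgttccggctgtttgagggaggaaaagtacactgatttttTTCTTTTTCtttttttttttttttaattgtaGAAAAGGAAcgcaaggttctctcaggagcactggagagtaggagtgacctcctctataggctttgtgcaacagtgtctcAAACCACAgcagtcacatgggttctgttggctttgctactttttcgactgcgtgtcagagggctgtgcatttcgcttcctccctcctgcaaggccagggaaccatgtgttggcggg
Ifna4, chr4:88841566-88841865, plus strand: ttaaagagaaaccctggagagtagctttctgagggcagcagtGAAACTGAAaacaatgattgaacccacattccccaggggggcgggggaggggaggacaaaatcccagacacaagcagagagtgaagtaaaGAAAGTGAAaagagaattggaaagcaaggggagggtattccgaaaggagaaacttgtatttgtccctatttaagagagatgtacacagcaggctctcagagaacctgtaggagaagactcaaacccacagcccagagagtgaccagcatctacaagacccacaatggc
Dusp1, chr17:26508423-26508722, minus strand: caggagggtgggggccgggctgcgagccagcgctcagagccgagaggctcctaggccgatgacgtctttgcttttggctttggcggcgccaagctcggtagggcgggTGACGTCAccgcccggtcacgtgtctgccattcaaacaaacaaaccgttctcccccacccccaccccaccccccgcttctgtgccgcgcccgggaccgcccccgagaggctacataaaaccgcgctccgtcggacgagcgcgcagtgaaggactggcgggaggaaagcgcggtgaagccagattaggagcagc
None of the 8 motifs searched was found in the Hsd11b1 window, GAAANNGAA matched at 2 places each in Cytip and Ifna4, TGTGGTTT at 1 place in Cytip, and TGACGTCA at 1 place in Dusp1. Of all 21238 promoter windows, 8.13% hold GAAANNGAA, 2.24% TGACGTCA and 1.61% TGTGGTTT. Among other windows under raised peaks named below, those of Socs3, Tnf, Psmb9, Tap1, Cebpb, H2-K1 and Gm40369 held none of the 8 motifs. The Gm51573 window held TGTGGTTT, and that of Heatr9 held TGANTCA, the AP-1 motif. A match describes letters and not a bound site.

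A ligand added to the other pair moved far fewer peaks than the same ligand given alone, and how many depended on the ligand. The labels give no order in which ligands were given. Words such as place, after and addition name the groups subtracted and not a sequence in time. Adding cG to ZS changed 70 peaks at an adjusted p under 0.05 (0.0586% of the tested peaks), 17 higher (0.0142%) and 53 lower (0.0444%). Adding S to ZcG changed 3333 peaks (2.79%), 1134 higher (0.949%) and 2199 lower (1.84%). Adding Z to ScG changed 922 peaks (0.772%), 387 higher (0.324%) and 535 lower (0.448%). Given alone and set against Ctrl, cG changed 27801 peaks (23.3%), S 33341 (27.9%) and Z 7062 (5.91%). Tests are edgeR's quasi-likelihood test with Benjamini-Hochberg adjustment over all tested peaks. In these bulk samples, fewer responding cells and less accessibility per cell cannot be told apart. The 3 comparisons share the ZScG libraries, so their values are set side by side and no overlap between them is given.

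Added to 1 other ligand, each gave counts between those of the ligand alone and those of the ligand added to the pair. Set against Z alone, ZcG differed at 10840 peaks (cG after Z, 9.07%). Set against S alone, ScG differed at only 692 (cG after S, 0.579%), of which 570 were higher. S changed 18118 peaks after Z (15.2%) and 5900 after cG (4.94%). For Z the counts were 3017 after S (2.53%) and 3425 after cG (2.87%). As reported, cG had the smallest count of the 3 ligands in the third place and Z the smallest alone. With the mitochondrial share as a covariate cG, not Z, had the smallest count alone, and cG after S, S after cG and Z after cG had fewer calls than the same ligand in the third place. That fit gave 3592 peaks for cG alone, 7821 for S and 7125 for Z, then 10865 for cG after Z, 5 for cG after S, 8265 for S after Z, 193 for S after cG, 920 for Z after S and 0 for Z after cG (edgeR, with 8267 at an unadjusted p under 0.05). For the third place it gave 59 for cG, 1779 for S and 822 for Z, in each case fewer than alone. Counts depend on the spread of the libraries in each comparison, and leaving out 1 library lowered the count for cG to 9 (without ZS replicate 1), for S to 916 (without ZcG replicate 1) and for Z to 152 (without ScG replicate 1).

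**Figure D1:**
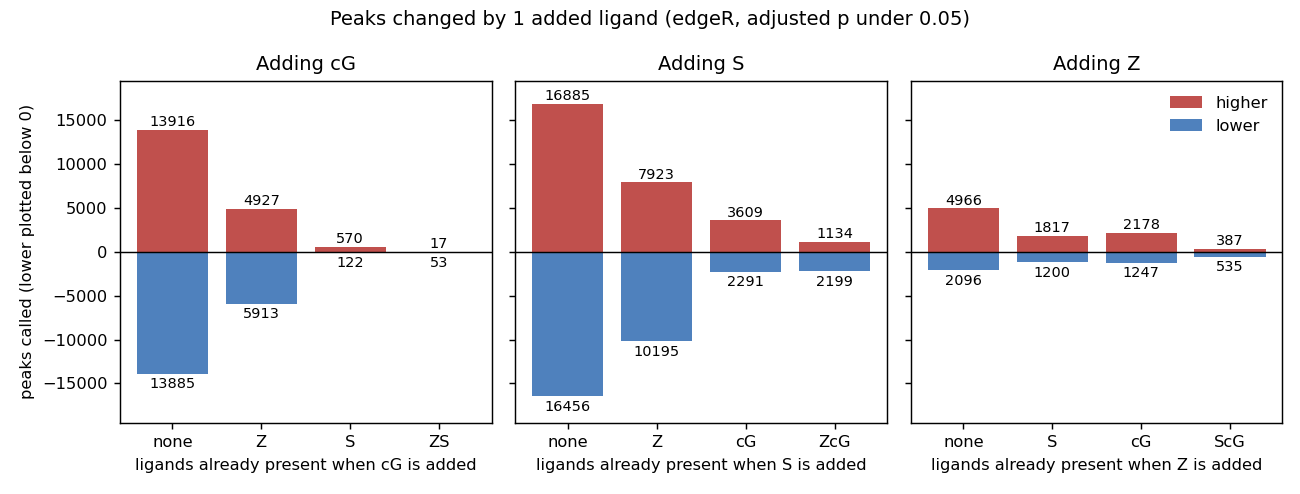
Number of peaks called at an adjusted p under 0.05 when each ligand was added to no ligand, to 1 other ligand or to the pair, drawn as bars above 0 for peaks that became higher and below 0 for lower. For each ligand the bars shorten from the comparison with no other ligand to that with the pair, down to 70 peaks for cG, 3333 for S and 922 for Z.

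A direct test compared each ligand's change in the third place with its change alone, (ZScG - ZS) - (cG - Ctrl) for cG and likewise for the others. These contrasts share no library between their parts. The change differed at 10470 peaks for cG (8.76%), with 3.44% of tested peaks higher and 5.32% lower in the third place than alone. It differed at 11364 peaks for S (9.51%), 3.17% higher and 6.34% lower, and at 3949 for Z (3.31%), 0.573% higher and 2.73% lower. With the mitochondrial share as a covariate the count was 814 for cG, 6101 for S and 3832 for Z, so that cG and Z changed order. Across 119464 peaks, the log2 fold changes in the third place and alone correlated at r = 0.106 for cG, 0.197 for S and 0.0405 for Z, a description across peaks, which are not replicates. Among peaks that a ligand raised alone, its median log2 fold change fell from 1.34 alone to 0.06 in the third place for cG, from 1.57 to 0.15 for S, and from 1.28 to -0.08 for Z. Among peaks that it lowered alone, the medians were -1.18 and -0.12 for cG, -1.11 and -0.27 for S, and -1.07 and -0.17 for Z. Those peaks were chosen on the ligand-alone libraries, which favours a smaller second value.

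Part of the peaks changed in the third place were also changed by the same ligand alone. For cG, 10 of the 17 higher peaks (58.8%, and 0.0719% of the 13916 raised alone) and 36 of the 53 lower ones (67.9%, and 0.259% of 13885) were called the same way alone. For S, these were 476 of 1134 higher peaks (42.0%, and 2.82% of 16885) and 1247 of 2199 lower peaks (56.7%, and 7.58% of 16456). Z shared 36 of 387 higher peaks (9.30%, and 0.725% of 4966) and 33 of 535 lower peaks (6.17%, and 1.57% of 2096). Of all tested peaks, cG alone raised 11.6% and lowered 11.6%, S alone 14.1% and 13.8%, and Z alone 4.16% and 1.75%. For Z, 74 peaks raised alone were lowered in the third place (13.8% of 535), more than the 36 raised in both. The difference between the ligands in these shares was not tested.

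**Figure D2:**
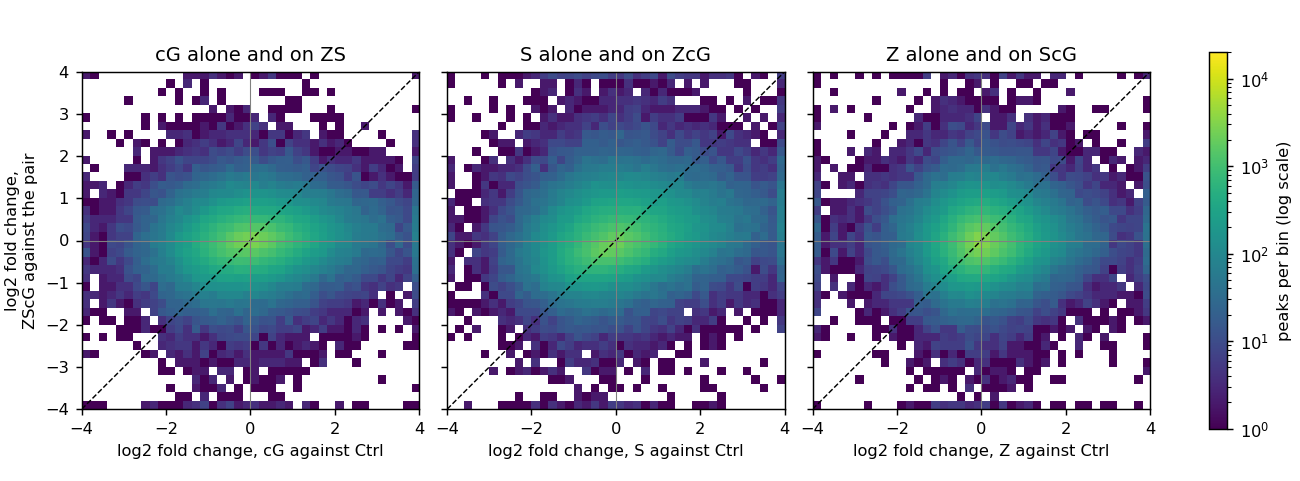
For cG, S and Z, each tested peak's log2 fold change when the ligand was given alone (horizontal, against Ctrl) and when it was added to the other pair (vertical), as counts of peaks per bin, with values beyond 4 drawn at the edge. The dashed line marks equal changes; for cG and S the cloud is wider along the horizontal axis than along the vertical one, with r of 0.106 for cG, 0.197 for S and 0.0405 for Z.

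Relative to unstimulated cells, the median of the raised peaks was above Ctrl in the triplet and that of the lowered ones below it. The 17 peaks raised by cG stood at a median log2 of 1.5 over Ctrl in ZScG, 0.46 in ZS, 1.18 in ZcG and 1.56 in ScG. Peaks raised by S in the third place stood at a median log2 of 1.46 over Ctrl in ZScG, 0.95 in ZS, 0.91 in ScG and 0.09 in ZcG. Peaks raised by Z stood at 0.94 in ZScG, 0.66 in ZS, 0.38 in ZcG and -0.01 in ScG. Those lowered by S stood at -0.85 in ZScG, -0.50 in ZS, -0.44 in ScG and -0.13 in ZcG, and those lowered by Z at -0.80, -0.39, -0.02 and -0.20. The 53 peaks lowered by cG were at -1.79 in ZScG and already at -0.70 in ZS, -0.74 in ZcG and -1.11 in ScG. These values describe peaks that were chosen on the ZScG libraries, and all tested peaks had medians of 0.01 to 0.04.

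Of the 17 peaks that cG raised, 2 lay at the chemokine genes Ccl5 and Ccl4 and 1 at the antiviral gene Rsad2, and the 53 lowered peaks included some at Hsd11b1, Irf2 and Cd36. The peak over Ccl5, a chemokine that draws T cells and monocytes, and its neighbour Heatr9 (chr11:83521831-83527834) measured 77.5 and 83.1 CPM in ZScG and 56.4 and 49.4 in ZS. It measured 5.14 and 4.44 CPM in Ctrl, 93.8 and 91.0 in S, 64.3 and 83.6 in cG, and 4.86 and 7.03 in Z. Both ZScG libraries were above both ZS libraries, yet below S alone. The log2 fold change was 0.60 ± 0.108 (SE, adjusted p = 0.00266), against 3.95 for cG alone, a difference of -3.35 (adjusted p = 3.99e-36). The call for cG was lost without ZScG replicate 2 or without ZS replicate 2. S raised the same peak by 0.60 ± 0.109 (adjusted p = 0.000167), from 51.4 and 54.2 CPM in ZcG.

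Other peaks raised by cG included those near Ccl4, Inhba, Rsad2 and Rras2. Beside Ccl4, a chemokine gene, a peak (chr11:83665111-83666449) measured 22.1 and 24.3 CPM in ZScG and 15.1 and 11.1 in ZS, a log2 fold change of 0.83 ± 0.170 (adjusted p = 0.0125). Near Inhba, the activin A subunit gene, a peak (chr13:16031695-16034147) measured 16.8 and 16.1 CPM against 7.31 and 8.48, or 1.05 ± 0.202 (adjusted p = 0.00413). A wide peak at Rsad2, which codes for the antiviral enzyme viperin (chr12:26438731-26453446), measured 145 and 126 CPM against 101 and 104 in ZS, with 131 and 124 in ZcG and 126 and 128 in ScG. The triplet libraries of all 3 lay above the ZS libraries, but at Rsad2 they overlapped with ZcG and ScG. Rsad2 changed by 0.41 ± 0.0904 (adjusted p = 0.028) against 2.60 for cG alone, and that call was lost under 7 of 14 alternatives. The gene with the highest fold among the peaks near genes was Rras2, a RAS-related GTPase (chr7:114083721-114084183), at 4.69 and 4.14 CPM in ZScG, 0.645 and 0.829 in ZS and 3.02 and 3.01 in cG, a change of 2.56 ± 0.460 (adjusted p = 0.00266).

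The promoter peak of Hsd11b1, the enzyme that regenerates active glucocorticoid (chr1:193241954-193243350), was the lower peak with the smallest p among those near genes, and its window is the first printed above. It measured 6.70 and 10.3 CPM in ZScG, 16.1 and 17.4 in ZS, 21.4 and 22.6 in ZcG and 14.6 and 16.7 in ScG. Ctrl had 50.4 and 46.6 CPM, Z 42.3 and 46.8, S 11.4 and 15.6, and cG 15.7 and 14.3. The triplet was below every library of its pairs and of the single ligands. Adding cG changed it by -1.0 ± 0.171 (adjusted p = 0.00228), S by -1.39 ± 0.168 (adjusted p = 2.17e-09) and Z by -0.90 ± 0.173 (adjusted p = 0.000993), whereas Z alone gave -0.12 (adjusted p = 0.664). For Z the third-place change differed from the change alone by -0.78 (adjusted p = 0.0188). The call for cG was lost without ZScG replicate 1 and in a fit of ZScG and ZS only, and the call for S in none of 14 alternatives.

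Cd36, a scavenger receptor for lipids, and Irf2, an interferon regulatory factor that can repress, also had peaks lowered by cG. At Cd36 (chr5:17854115-17855196) the values were 23.1 and 23.0 CPM in ZScG, 39.8 and 33.7 in ZS, 44.1 and 34.9 in ZcG, 37.6 and 35.4 in ScG and 54.3 and 47.8 in Ctrl. The triplet was below all pair libraries, and each ligand lowered it, with log2 fold changes of -0.67 for cG (adjusted p = 0.00389), -0.77 for S (adjusted p = 2.62e-05) and -0.66 for Z (adjusted p = 0.00092). At Irf2 (chr8:46844441-46845581) the triplet had 3.35 and 4.27 CPM and ZS 10.5 and 9.31, a change of -1.39 ± 0.252 (adjusted p = 0.00266), which differed by -1.16 from the change with cG alone (adjusted p = 0.00874). Peaks at Etv6, an ETS-family repressor, and Hsf2, a heat shock factor, were lower, at -1.39 and -0.62 (adjusted p = 0.00388 for both). Each of the 19 peaks named for cG lost its call under at least 1 alternative.

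Across the 70 peaks the split depended on the scaling and on the groups in the fit. It was 17 higher and 53 lower as reported, 9 and 287 without TMM scaling (a setting that moved the median of all peaks by -0.14), and 28 and 3 in a fit of ZScG and ZS alone. With offsets that follow abundance, 41.1% of the calls were higher, against 24.3% as reported. The unadjusted p was under 0.05 at 10099 peaks.

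**Figure D3:**
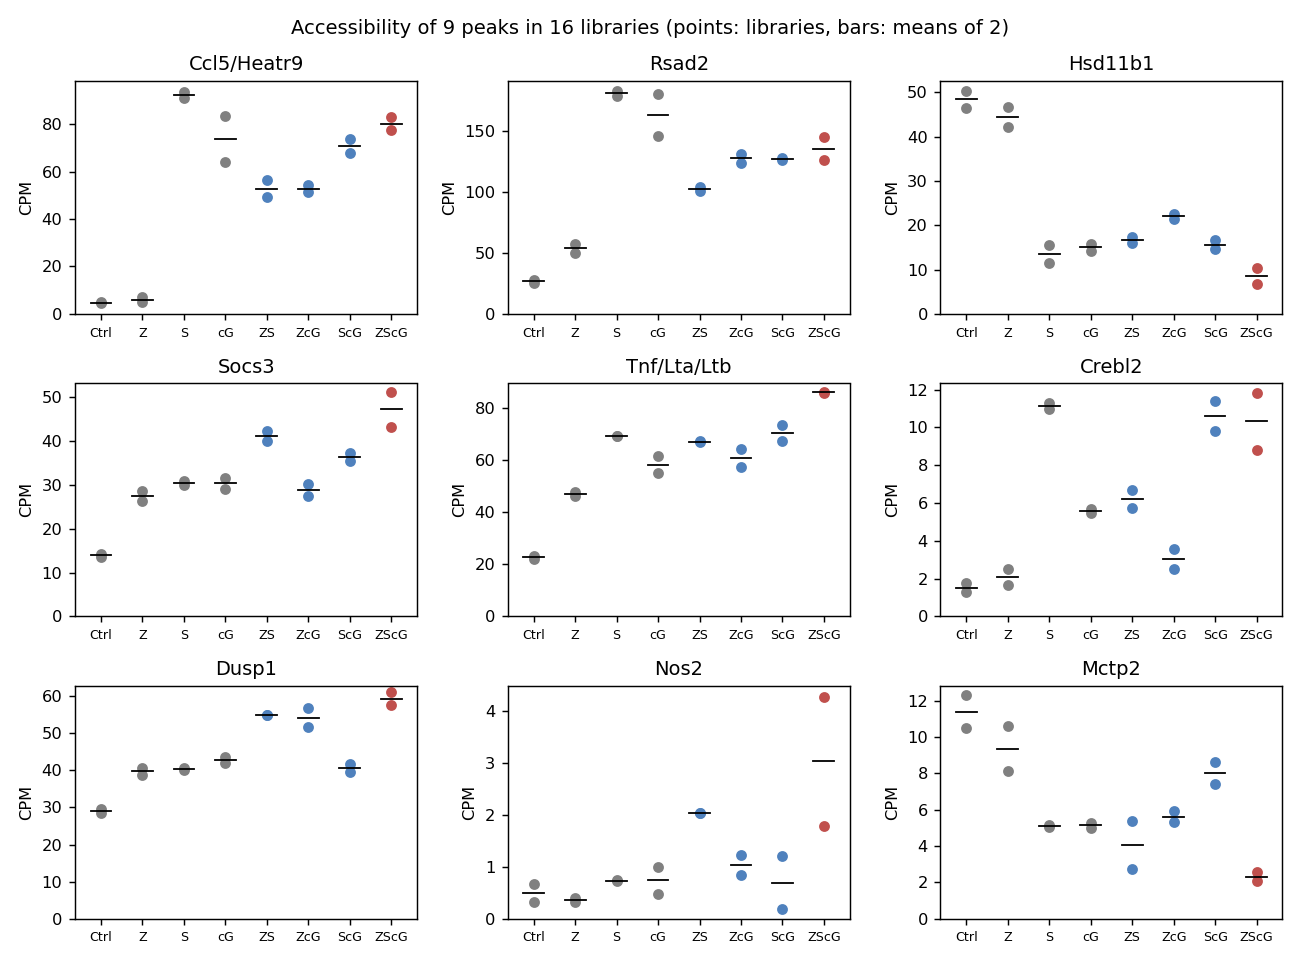
Accessibility in CPM of 9 peaks in 16 libraries, with points for libraries and bars for the mean of the 2 libraries of a group. At the Ccl5 peak the ZScG libraries (77.5 and 83.1 CPM) lie above those of ZS and ZcG, and at the Hsd11b1 peak (6.70 and 10.3 CPM) they lie below those of all other groups.

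Adding S to Z and cG raised 6 peaks near inflammatory cytokine and chemokine genes and 4 near feedback genes among its 1134 raised peaks. As reported, it lowered more peaks than it raised, and a larger share of the lowered ones lay over promoters. Without TMM scaling (1608 higher, 645 lower) and with offsets that follow abundance (1198 higher, 783 lower) more peaks were raised. The promoter share under those settings was not computed. At the promoter of Socs3, an inhibitor of cytokine receptor signalling (chr11:117967672-117970447), the triplet had 51.3 and 43.3 CPM, ZcG 27.4 and 30.3, ZS 42.4 and 40, ScG 37.2 and 35.6, and Ctrl 13.5 and 14.3. ZScG was above every library of its pairs, and S raised the peak by 0.72 ± 0.119 (adjusted p = 2.97e-05). The peak across Tnf, Lta and Ltb, a cluster of 3 tumour necrosis factor family genes (chr17:35197130-35203029), had 85.8 and 86.2 CPM in ZScG, 57.2 and 64.1 in ZcG, 67.4 and 66.8 in ZS, 67.2 and 73.4 in ScG and 23.3 and 22 in Ctrl. Here too the triplet was highest in every library, with 0.50 ± 0.102 for S (adjusted p = 0.000885), a call lost without ZcG replicate 1. Given alone, S raised this peak by 1.62, and the third-place change was smaller by 1.11 on the log2 scale (difference -1.11, adjusted p = 1.23e-09).

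Among 78 peaks near genes of type I interferon and its induction, 2.56% were called for S, against 2.79% of all tested peaks. S raised 1 of them, at the Ifna4 promoter. Its peak (chr4:88841573-88842379) had 3.91 and 4.27 CPM in ZScG, 1.57 and 1.11 in ZcG, 4.62 and 4.33 in ZS, and 4.28 and 0.874 in ScG. The triplet lay above ZcG and within the range of the other pairs. S raised it by 1.61 ± 0.474 (adjusted p = 0.0376), a call lost under 7 of 13 alternatives. Ifna4 belongs to a family of near-identical genes, so reads from relatives could be counted here. At the Ifnb1 promoter, the gene of interferon beta, S gave 0.83 ± 0.318 (adjusted p = 0.141), from 3.86 and 3.67 CPM in ZcG to 6.03 and 7.45 in ZScG, which did not pass the threshold.

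The peaks raised by S with the smallest p near genes included some whose level followed S in every pair. A peak in Crebl2, a CREB-like gene (chr6:134847348-134847956), had 11.8 and 8.83 CPM in ZScG, 2.53 and 3.56 in ZcG, 11.4 and 9.83 in ScG, 6.67 and 5.71 in ZS, 11 and 11.3 in S and 1.31 and 1.74 in Ctrl. All groups with S were above ZcG, and S raised it by 1.76 ± 0.286 (adjusted p = 1.67e-05). Psen2, the gene of presenilin 2, had a similar order of groups, with 9.94 and 9.24 CPM in ZScG and 2.41 and 2.45 in ZcG (1.98, adjusted p = 4.81e-05). The peak at Gm51573 (chr8:55372542-55374624) had 25.9 and 19.9 CPM in ZScG and 7.24 and 8.46 in ZcG, but 4.45 and 6.27 in S alone and 5.24 and 9.26 in Ctrl. S in the third place raised Gm51573 by 1.55 ± 0.223 (adjusted p = 1.33e-06) where S alone gave -0.44 (adjusted p = 0.159), and the difference was 1.99 (adjusted p = 1.07e-06).

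Among the peaks that S lowered, Cytip, an adaptor that regulates dendritic cell adhesion, is the promoter printed above with 2 GAAANNGAA matches. Its peak (chr2:58159666-58161531) had 18.9 and 17.7 CPM in ZScG, 32.6 and 36.7 in ZcG, 28.9 and 22.9 in ZS, 24.7 and 22.2 in ScG and 44.5 and 44.0 in Ctrl. The triplet was lowest in both libraries, and S changed it by -0.92 ± 0.138 (adjusted p = 2.55e-06). Fbxl4, a mitochondrial protein gene, had 75.4 and 77.9 CPM in ZScG and 130 and 118 in ZcG at its promoter, a change of -0.69 (adjusted p = 2.91e-07). Other peaks lowered by S lay at Micu3, a regulator of mitochondrial calcium uptake (-1.29, adjusted p = 2.91e-07), at Mdfic (-0.86, adjusted p = 1.69e-06) and at Ppp1r12a, a myosin phosphatase subunit (-0.94, adjusted p = 1.84e-06). Near Rab2a a small peak had 0.223 and 0 CPM in ZScG and 2.17 and 2.00 in ZcG, at or under the limit of a count of 0 in both triplet libraries.

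Promoter windows held 17.5% of the peaks lowered by S and 5.64% of those raised, against 8.25% of all tested peaks. The lowered peaks were also the more accessible ones, with a median of 15.9 CPM over the 36 libraries against 2.97 for the raised and 2.15 for all. Among the promoters, GAAANNGAA was in 9.30% of the 86 with a raised peak and 9.77% of the 471 with a lowered peak, against 7.17% of the 12056 with a tested peak. TGANTCA, the AP-1 motif, was in 9.30% and 5.10%, against 4.95%. With offsets that follow abundance, 60.5% of the S calls were higher, without TMM scaling 71.4%, and in a fit of ZScG and ZcG alone 48.3%, against 34.0% as reported, so the split into higher and lower depends on the scaling. With the mitochondrial share as a covariate S changed 1779 peaks.

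The 387 peaks that Z raised included 1 at the feedback gene Dusp1 and 2 at the inflammatory genes Nos2 and Ptgs2, and at Syk 1 peak was raised and 1 lowered. Dusp1, a phosphatase that switches off p38 and JNK kinases, had 61.1 and 57.5 CPM in ZScG at its promoter (chr17:26507047-26509829), 39.6 and 41.8 in ScG, 54.9 and 55.0 in ZS, 51.7 and 56.7 in ZcG and 28.5 and 29.5 in Ctrl. The triplet libraries were above every pair library, and the 3 groups with Z above ScG. Z raised it by 0.54 ± 0.109 (adjusted p = 0.00184), close to the 0.46 of Z alone, with a difference of 0.09 ± 0.159 (SE). The call was lost without ZScG replicate 1 and without ScG replicate 1. TGACGTCA is printed in capitals in its window above, and 3.23% of promoters with a tested peak hold that motif.

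Inducible enzymes of inflammation also had raised peaks, at low levels. At Nos2, the inducible nitric oxide synthase gene, a peak had 1.79 and 4.27 CPM in ZScG, 0.186 and 1.20 in ScG, 2.04 and 2.03 in ZS and 0.845 and 1.22 in ZcG, a change of 2.15 ± 0.575 (adjusted p = 0.0404). At Ptgs2, the gene of cyclooxygenase-2, the values were 2.01 and 2.76 CPM against 0.372 and 0.546 in ScG, a change of 2.36 (adjusted p = 0.0461). Both triplet libraries exceeded both ScG libraries, but some of these values lie at the limit of a count of 0, and the call was lost under 4 of 13 alternatives at Nos2 and 8 of 13 at Ptgs2. At H2-K1, a class I histocompatibility gene, Z gave 0.42 ± 0.115 (adjusted p = 0.046), from 35 and 35.8 CPM to 49.4 and 45.2, and at Cebpb, a myeloid transcription factor, 0.45 (adjusted p = 0.0287). H2-K1 and Cebpb each lost the call without any 1 of the 4 libraries compared.

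The raised peaks with the smallest p near genes lay in the block around Rn4.5s described below, in Cmss1 and Filip1l, or at Lars2. The peak in Cmss1 and Filip1l (chr16:57389441-57391820) had 136 and 138 CPM in ZScG, 65.2 and 78.2 in ScG, 126 and 135 in ZcG, 106 and 102 in ZS, 115 and 113 in Ctrl, 54.6 and 50.7 in S and 83.9 and 67.6 in cG. Z raised it by 0.94 ± 0.0976 (adjusted p = 1.65e-13), while Z alone gave -0.13 (adjusted p = 0.494), so the triplet stood near the unstimulated level from which S alone had moved it by -1.12. Lars2, a mitochondrial leucyl-tRNA synthetase gene (chr9:123461734-123462307), had 63.0 and 61.9 CPM in ZScG, 31.2 and 31.5 in ScG, 54.8 and 58.5 in ZcG, 40 and 49.4 in Ctrl and 21.3 and 21.1 in S, a change of 1.00 ± 0.129 (adjusted p = 2.56e-08). Both kept their call in 14 of 14 alternatives, the mitochondrial share as covariate among them. How reads that match several places were assigned is not given in the sources used here, and whether reads of these peaks map to 1 place was not tested.

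Peaks lowered by Z included some that Z alone had raised. In Macrod2, an ADP-ribose hydrolase gene, a peak had 23.9 and 20.8 CPM in ZScG, 38.8 and 36.5 in ScG, 47.2 and 44.5 in Z and 29.2 and 24.8 in Ctrl. Z changed it by -0.75 in the third place (adjusted p = 9.48e-05) and by 0.77 alone (adjusted p = 9.44e-07), a difference of -1.51 ± 0.179 (adjusted p = 1.4e-11). The peak in 4932438A13Rik gave -1.26 (adjusted p = 6.93e-05) and 1.22 (adjusted p = 4.13e-07), a difference of -2.48 (adjusted p = 5.49e-12). In Mctp2 a peak had 2.57 and 2.07 CPM in ZScG, 7.44 and 8.63 in ScG and 10.5 and 12.3 in Ctrl, below ScG and Ctrl in both libraries, and Z changed it by -1.77 ± 0.305 (adjusted p = 8.99e-05).

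Syk, the kinase downstream of Dectin-1, had 1 peak lowered and 1 raised by Z. The lowered peak (chr13:52599735-52600836) had 12.0 and 13.9 CPM in ZScG, 27.3 and 20.1 in ScG, 19.7 and 13.1 in ZcG, 15.1 and 14.6 in ZS and 10.4 and 14.8 in Ctrl, a change of -0.89 ± 0.159 (adjusted p = 0.000223) that was lost without ScG replicate 1. The raised peak had 2.12 and 2.48 CPM against 0.093 and 0.874 in ScG (adjusted p = 0.0485) and lost its call under 8 of 13 alternatives. Among promoters, 23.0% of the peaks raised by Z lay in a promoter window and 10.5% of those lowered, against 8.25% of all. The higher share of the Z calls was 42.0% as reported, 65.1% with offsets that follow abundance and 74.8% in a fit of ZScG and ScG alone.

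Gene lists are described by the peaks within 1 kb of their genes. Of 181 peaks near 29 interferon-induced genes with a tested peak, cG raised 1 (Rsad2), S raised 2 (Gbp5 and Oas1a) and lowered 1 (Herc6), and Z lowered 1. These are 0.552%, 1.66% and 0.552% of the list, against 0.0586%, 2.79% and 0.772% of all tested peaks. The medians of these peaks were 0.13, 0.15 and 0.10, against -0.01, -0.01 and -0.02 for all tested peaks. Their summed level was 1820 and 1740 CPM in ZScG, 1690 and 1640 in ZS, 1730 and 1750 in ZcG and 1780 and 1800 in ScG, against 993 and 994 in Ctrl and 2000 and 1960 in S. The 4 groups with 2 or 3 ligands thus lay within 1640 to 1820 CPM, all above Ctrl. The third-place change differed from the change alone at 55 of these peaks for cG, 54 for S and 18 for Z (edgeR), each time with the lower value in the third place. These are 30.4%, 29.8% and 9.94% of the list, against 8.76%, 9.51% and 3.31% of all tested peaks. With the mitochondrial share as a covariate the counts over all tested peaks were 814, 6101 and 3832. The list was not recounted in that fit.

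Of 102 peaks near 24 genes of inflammatory cytokines and chemokines, S raised 6 (5.88%, against 0.949% of all tested peaks called higher) and lowered 0, where DESeq2 gave 6 and 0 and an unadjusted p under 0.05 gave 27 and 2. In the same list cG raised 2, at Ccl5 and Ccl4 (1.96%, against 0.0142%), and Z raised 2, at Nos2 and Ptgs2 (1.96%, against 0.324%). The difference between the ligands was not tested. The 6 lay at Tnf with its neighbours, Ccl5, Il1a, Il6, Il27 and Lif. Il1a, an alarm cytokine, had 3.46 and 4.41 CPM in ZScG and 1.09 and 1.22 in ZcG (1.75, adjusted p = 0.014). Il6 had 1.56 and 1.24 CPM against 0.241 and 0.223 (adjusted p = 0.0257), a level near the limit of a count of 0. The list's medians were 0.13 for cG, 0.46 for S and 0.35 for Z. Its summed level was 707 and 738 CPM in ZScG, 622 and 627 in ZS, 556 and 575 in ZcG, 645 and 638 in ScG and 332 and 328 in Ctrl, highest in both triplet libraries.

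**Figure D4:**
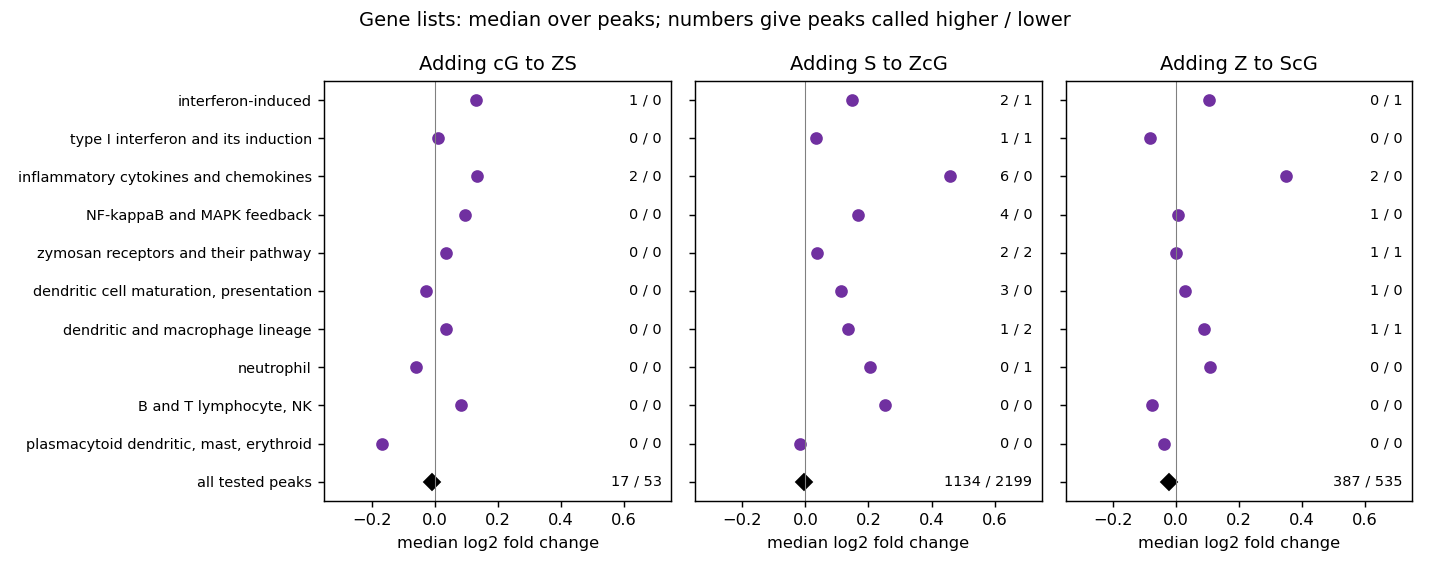
Median log2 fold change of the peaks within 1 kb of each gene list for cG, S and Z in the third place, with the numbers called higher and lower. The inflammatory list has the highest medians for S (0.46) and Z (0.35), and the medians of all tested peaks are -0.01 for cG and S and -0.02 for Z.

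Among 138 peaks near 18 feedback genes of NF-kappaB and MAP kinases, S raised 4 (2.90%) and Z raised 1 (0.725%) in edgeR. Of all tested peaks, S raised 0.949%, with 2.79% called in either direction, and Z raised 0.324%, with 0.772% called. The peaks raised by S were at Socs3, in Nfkb1 and 2 at Tnfaip3, the gene of the inhibitor A20, and Z raised Dusp1. DESeq2 called 5 higher for S, and 2 higher and 2 lower for Z. The Tnfaip3 peak with the smaller p had 20.4 and 18.3 CPM in ZScG, 8.57 and 11.9 in ZcG and 3.39 and 2.99 in Ctrl, above ZcG in both libraries (0.92, adjusted p = 0.000567), and the call was lost without ZcG replicate 1. For cG, edgeR called 0 of these peaks and DESeq2 0, while 17 were higher and 5 lower at an unadjusted p under 0.05. The medians of the list were 0.10 for cG, 0.17 for S and 0.01 for Z. Among 78 peaks near 14 genes of type I interferon and its induction, S raised Ifna4 and lowered a peak in Jak1. These are 2.56% of the list, against 2.79% of all tested peaks. DESeq2 gave neither peak an adjusted p, and the medians of the list were 0.01, 0.03 and -0.08. In that list cG and Z changed 0 peaks by edgeR, with 6 and 10 at an unadjusted p under 0.05, where DESeq2 called 0 for cG and 1 for Z.

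Of 164 peaks near 20 genes of the zymosan receptors and their pathway, 2.44% were called for S and 1.22% for Z, against 2.79% and 0.772% of all tested peaks. S raised peaks at Clec4e, the receptor Mincle, and Nfatc2 and lowered peaks at Tlr6 and Bcl10, and Z raised and lowered the Syk peaks described above. At Clec4e the triplet had 9.05 and 12.7 CPM, ZcG 7.24 and 5.12 and ScG 11.6 and 13.2, so the change with S (0.81, adjusted p = 0.0285) left 1 ZScG library below both ScG libraries and the other between them. The medians were 0.03 for cG, 0.04 for S and 0.00 for Z, and cG gave 0 calls by edgeR and by DESeq2, with 5 peaks at an unadjusted p under 0.05. Clec4e, Nfatc2, Tlr6 and Bcl10 each lost the call under 4 or more alternatives.

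In the list of dendritic cell maturation and antigen presentation, 108 peaks near 20 genes, S raised 3 (2.78%). Of all tested peaks, S raised 0.949%, and 2.79% were called in either direction. The 3 lay at the costimulatory gene Cd86 (1.58, adjusted p = 0.0102) and at 2 places among the antigen processing genes Psmb9, Tap1, Psmb8 and Tap2. The promoter peak of Psmb9 and Tap1 had 35.8 and 41 CPM in ZScG, 26.6 and 27.0 in ZcG, 35.4 and 35.2 in ScG and 19.6 and 21.6 in Ctrl (0.51, adjusted p = 0.00951). ZScG was above ZcG in both libraries and close to ScG. The call was lost under 3 of 14 alternatives at Cd86 and at Psmb9 and Tap1, and under 5 of 14 at Psmb8 and Tap2. DESeq2 called 2 peaks of the list higher for S. Z raised H2-K1 (0.926%, against 0.324% of all tested peaks raised and 0.772% called). For cG there were 0 calls by edgeR and by DESeq2, with 11 peaks at an unadjusted p under 0.05. The medians were -0.03, 0.11 and 0.03 for cG, S and Z.

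Of 147 peaks near lineage genes, 2.04% were called for S and 1.36% for Z, against 2.79% and 0.772% of all tested peaks. S raised 1, at the growth factor receptor gene Csf2rb, and lowered 2, among them the fractalkine receptor gene Cx3cr1, while Z raised Cebpb and lowered Cx3cr1 (-0.67, adjusted p = 0.00751). Their medians were 0.04, 0.14 and 0.09. S lowered the promoter of S100a8, a neutrophil calgranulin gene and 1 of 10 neutrophil peaks, from 12.7 and 10.9 CPM in ZcG to 6.37 and 8.14 in ZScG (-0.71, adjusted p = 0.0467), a call that 11 of 14 alternatives did not keep. Neutrophil peaks summed to 76.2 and 61.0 CPM in Ctrl and 49.3 and 51.2 in ZScG, and their part in the results was not tested. At the 19 lymphocyte peaks and the 47 peaks of plasmacytoid, mast and erythroid genes, edgeR and DESeq2 called 0 for each ligand. At an unadjusted p under 0.05 the lymphocyte list had 0 for cG, 3 for S and 1 for Z, and the other list 2, 8 and 3.

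In a block of chromosome 6 most tested peaks were raised by S and by Z. Around Rn4.5s, a small repeated RNA gene, 17 tested peaks lie within 110 kb (chr6:47650610-47760247) with 10 annotated genes. The block was chosen after the values were seen. S raised 14 of its peaks and Z 13, against 0.949% and 0.324% of all tested peaks, with medians of 0.56 and 0.68. DESeq2 called 13 for each. For cG the median was 0.05, and 0 passed in edgeR, 0 in DESeq2 and 0 at an unadjusted p under 0.05. Their summed level was 1410 and 1390 CPM in ZScG, 1290 and 1410 in ZS, 955 and 981 in ZcG, 841 and 897 in ScG and 626 and 690 in Ctrl. The groups with both Z and S were above the other pairs, which were above Ctrl. Of the 38 tested peaks within 150 kb on either side, S raised 4 and lowered 1, and Z raised 3. All the raised ones lay 108 to 124 kb from Rn4.5s, beside the last peak of the block at 103 kb. The raised stretch thus ran past the edge of the block.

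Chromosome Y and the unplaced or random scaffolds also had more raised than lowered peaks. Of 49 tested peaks on chromosome Y, in mice labelled as female, S raised 7 and Z 9 (edgeR; against 0.949% and 0.324% of all tested peaks), and of 176 on unplaced or random scaffolds, S raised 17 and lowered 2 while Z raised 8 and lowered 1. For cG edgeR called 0 in both, with 2 and 29 higher at an unadjusted p under 0.05, and DESeq2 called 0 on chromosome Y and 1 on scaffolds. The scaffold peaks summed to 24000 and 23400 CPM in ZScG, 15900 and 16400 in ZS, 15800 and 15300 in ZcG and 14800 and 18200 in ScG. Calls at these places, and those at Gm40369 to Gm40363 within the block, are uncertain because near-identical copies could share reads. Without these peaks and those of the block, the counts were 70 for cG, 3271 for S and 858 for Z.

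**Figure D5:**
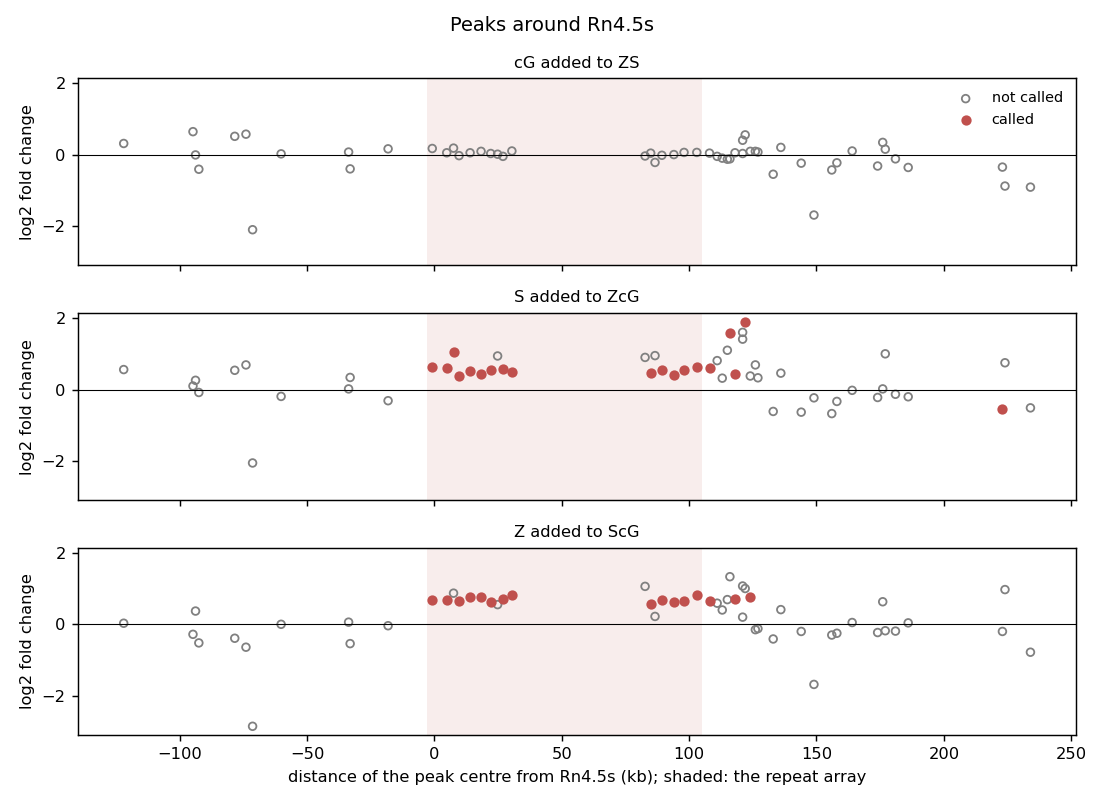
Log2 fold change of each tested peak against its distance in kb from Rn4.5s for cG, S and Z in the third place, with the block shaded. Inside the block all 17 peaks are above 0 for S and for Z, with medians of 0.56 and 0.68, and the median for cG is 0.05.

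Set against the mean of its pairs, the triplet differed at 1114 peaks (0.932%), 372 higher (0.311%) and 742 lower (0.621%). The higher peaks stood at a median log2 of 1.36 over Ctrl in ZScG and the lower at -1.13. Hsd11b1 was the lower peak with the smallest p near a gene (-1.10, adjusted p = 2.78e-07), followed by Cd36 and Ppp1r12a. Leaving out ZScG replicate 2 reduced the count to 174, and a fit of the 4 groups alone gave 652, of which 61.0% were higher against 33.4% as reported.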

How the data were processed

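The authors deposited raw counts, as whole numbers, for 119751 peaks in 36 libraries and the peak positions. Per the submitters' processing notes, Bowtie2 2.2.9, MACS2, bedtools and featureCounts and the build mm10 were used. Their roles, the shift of read ends for the transposase, the handling of duplicates and of multiply mapping reads, and whether peaks were called on pooled libraries are not given in the sources used here. Sample titles identified every count column, leaving 0 unused.

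From these counts the mitochondrial peak was removed, peaks low in every group were dropped with filterByExpr (minimum count 10, 286 dropped), and counts were scaled by TMM. All 36 libraries were fitted together in edgeR 4.0.16 (R 4.3.3, glmQLFit with robust estimation, 1 coefficient per group, 18 residual degrees of freedom, common dispersion 0.02), with Benjamini-Hochberg adjustment over 119464 peaks in each of 16 contrasts. DESeq2 1.42.0 was an alternative. The fit was also run on simulated counts with the same dispersion, 0.02, at every peak and changes in ZScG only. Those settings differ from these libraries, so the simulation cannot show how reliable the calls here are.

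Named peaks lay outside chromosome 18, had a mean of at least 1 CPM, were called, and had both triplet libraries beyond the pair's. They were the 8 of lowest p within 1 kb of a gene in each direction (3 against the mean of the pairs), the 2 of largest fold, and up to 3 per gene list. List peaks did not need to pass the mean or library conditions. The genes, lists and comparisons were chosen with earlier results of these data known. Promoter windows and gene positions come from RefSeq tables of GRCm38.p6, matched by symbol, and TMM-scaled CPM were computed here. The labels do not say that same-numbered libraries are paired, and they were not treated as pairs. Across 28 pairs of groups, deviations of same-numbered libraries correlated at -0.0132 to 0.0195. Counting noise enters each deviation, so this cannot show that a pairing was absent. No 2 replicates of ZScG or its pairs agreed within sampling noise (chi-square per degree of freedom 2.05 to 3.23). Some genes are not reported here.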

Additional observations from a re-analysis of the deposited data

Results flagged for a closer look

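For each ligand, the change in the third place was tested against the change of the same ligand alone, and the difference passed the threshold (edgeR, adjusted p under 0.05) at 10470 peaks for cG, 11364 for S and 3949 for Z. For cG, 4110 of the differences were positive and 6360 negative. For S these were 3791 and 7573, and for Z 685 and 3264. Among peaks raised by the ligand alone, the difference was called at 5872 (42.2%) for cG, 6800 (40.3%) for S and 2460 (49.5%) for Z, and every one of these was negative. Those peaks were chosen on libraries that also enter the difference, so that the direction there is a description. With the mitochondrial share as a covariate the counts were 814 for cG, 6101 for S and 3832 for Z.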

How the results depend on the processing

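The number of peaks called moved by over 1.5 times under several settings, as follows. For cG added to ZS (70) it was 296 without TMM scaling, 115 with DESeq2 and 31 in a fit of the groups compared. For S added to ZcG (3333) it was 1981 with offsets that follow abundance, 1779 with the mitochondrial share as covariate and 1435 with only the groups compared. In fits of only the groups compared it was 560 for Z added to ScG (922), 652 against the mean of the pairs (1114), 2402 for Z in the third place against alone (3949) and 2068 for Z on cG (3425). With the mitochondrial share as covariate it was 814 and 6101 for cG and S in the third place against alone (10470, 11364), 3592 for cG first, 5 for cG on S, 7821 for S first, 8265 for S on Z, 193 for S on cG, 920 for Z on S and 0 for Z on cG (edgeR, with 8267 at an unadjusted p under 0.05). Without TMM scaling it was 21174 for cG in the third place against alone, 6187 for cG on S, 14512 for S on cG, 6008 for Z on S and 18080 for Z on cG. Thinned to the lowest depth it was 443 for cG on S and 2000 for Z on S. Leaving out each library in turn, with the lone library assumed to vary like the other groups, gave 9 to 53 for cG, 916 to 1670 for S, 152 to 457 for Z, 174 to 1295 against the mean of the pairs, and 6977 to 8893, 8278 to 9233 and 2574 to 3108 for cG, S and Z in the third place against alone. For first and second additions it gave 17387 to 21208 (cG first), 5304 to 6927 (cG on Z), 80 to 359 (cG on S), 21786 to 25763 (S first), 9279 to 12800 (S on Z), 1936 to 3573 (S on cG), 3604 to 4294 (Z first), 787 to 1613 (Z on S) and 1004 to 2140 (Z on cG). The cause of these moves was not tested beyond the smaller number of libraries. A replicate block, tried although the labels do not say that the numbers pair the libraries, gave 77, 3315 and 914 for cG, S and Z. It gave 1073 against the mean of the pairs. Leaving out repeat block, chromosome Y and scaffold peaks, chosen after seeing the data, gave 70, 3271 and 858. With peaks within 10 kb of the genes in place of 1 kb, the calls for S went from 3 to 8 in the interferon-induced list (6 higher, 2 lower), from 4 to 9 in the feedback list (8 higher, 1 lower) and from 3 to 7 in the lineage list (1 higher, 6 lower), and those for Z from 1 to 3, 1 to 2 and 2 to 4 in the interferon-induced, maturation and lineage lists. At 10 kb the S calls were 2.79% of 287, 4.15% of 217 and 3.26% of 215 peaks, against 2.79% of all tested peaks. The Z calls were 1.05%, 1.13% and 1.86% of their lists, against 0.772%. Without TMM scaling the median of all peaks moved by 0.12 for S added to ZcG and -0.14 for cG added to ZS. Of 1320 values of the 94 named peaks and comparisons under the alternatives, 1073 kept their call, 247 lost it and 0 changed sign, and 20 had no adjusted p in DESeq2. The call was never lost at 18 of 41 for S, 11 of 28 for Z, 0 of 19 for cG and 3 of 6 against the mean of the pairs. Depth limits peaks near 0.276 to 0.414 CPM, the most a count of 0 allows.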

Other observations

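The following peaks, among the 387 raised by Z, were chosen after their values were seen and stand for no gene group, and all adjusted p-values are from edgeR. The promoter peak of Actg1, gamma actin, had 55.6 and 62.1 CPM in ZScG, 34.8 and 37.7 in ScG, 49.8 and 56.4 in ZcG and 38.6 and 48.2 in Ctrl, a log2 fold change of 0.70 with Z (adjusted p = 2.1e-05). A peak in Actb, beta actin, had 85.8 and 82.2 CPM in ZScG, 57.4 and 52.2 in ScG and 50.3 and 46.6 in Ctrl (0.62, adjusted p = 3.72e-05). The promoter peaks of Srsf2, a splicing factor, with its neighbour Mfsd11, and of Eef2, a translation elongation factor, gave 0.66 (adjusted p = 1.36e-05) and 0.92 (adjusted p = 8.99e-05). The triplet libraries were above both ScG libraries at each of these peaks.

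Several narrow peaks inside genes had the profile seen at Cmss1 and Lars2, higher in Ctrl than in S alone and higher in ZScG than in ScG. The peak in Zc3h7a had 132 and 119 CPM in ZScG, 61.8 and 63.4 in ScG, 112 and 104 in Ctrl and 37.2 and 33.8 in S. In Gphn the values were 29.9 and 31.7 CPM in ZScG, 14.0 and 17.7 in ScG, 27.0 and 22.4 in Ctrl and 9.22 and 7.87 in S. Jarid2 and Camk1d had log2 fold changes with Z of 1.10 and 1.01. Whether reads of these peaks map to 1 place was not tested.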
